A study of Mus musculus with 14 samples.

Results

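The genes described here are the potassium channel genes of the mouse hippocampus. They were chosen by symbol, as the genes whose symbol begins with Kcn followed by the letters of a pore-forming or auxiliary potassium channel subunit, and by level, as those with a mean over the 14 libraries of at least 1 CPM (counts scaled to a common library size). Of 36118 genes in the table, 92 had such a symbol and 77 of these reached the level. The members just inside the limit were Kcnh8 with a mean of 1.252 CPM, Kcnmb1 with 1.26 CPM and Kcne4 with 1.46 CPM, and the genes just outside it were Kcng3 with 0.781 CPM, Kcnk5 with 0.493 CPM and Kcnn4 with 0.374 CPM.

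Potassium channels let potassium leave the cell and so pull the membrane back toward rest. Voltage-gated channels (the Kv and ether-a-go-go families) end action potentials and set firing rate, inward rectifiers and two-pore-domain channels hold the resting potential, and channels gated by calcium or sodium slow firing after bursts. In astrocytes, inward rectifiers take up the potassium that active neurons release. Silent Kv, Kv beta, KChIP and MinK-related subunits form no channel alone and change the gating or trafficking of the channels they join.

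Hippocampal RNA was sequenced from 14 mouse pups, 1 library per mouse, collected on postnatal day 15. WT mice and littermates that carried a small CRISPR/Cas9 deletion in exon 5 of both copies of Gsdmd in every tissue (KO), of a breed labelled C57/BL6 (C57BL/6N in the study's methods), were kept at 21% oxygen (room air, RA) or at 85% (hyperoxia, O2) over postnatal days 1 to 14. The groups were WT-RA (n = 4), WT-O2 (n = 4), KO-RA (n = 3) and KO-O2 (n = 3). Gsdmd encodes gasdermin D, which forms membrane pores in pyroptotic cell death. The title of WT-O2 mouse 4 gives hyperoxia and its treatment field room air. The deposited column name also gives hyperoxia. Values follow the title, and the calls lost under the other reading are named below. WT and KO mice also came from separate ranges of mouse numbers, so genotype and any difference in when the mice were bred or processed cannot be told apart.

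Libraries summed to between 27272270 and 28257496 estimated counts. Gsdmd had 41 to 63 counts in WT and 22 to 42 in KO libraries, and counts over the whole gene do not check a deletion within 1 exon. Several marker lists of cell types differed between libraries. Markers of striatal projection neurons summed to 421 to 968 CPM in WT and 160 to 269 CPM in KO mice, and 10 of 10 were called lower in KO under both exposures. Oligodendrocyte markers summed to 4811 to 19190 CPM in WT and 3270 to 5758 CPM in KO mice, with 6 of 6 called lower in KO-RA and 4 of 6 in KO-O2. Markers of hippocampal and pallial neurons summed to 2222 to 2702 CPM in WT and 2828 to 3541 CPM in KO mice, with 8 of 10 called higher in KO-RA and 5 of 10 in KO-O2. Thalamic markers ranged from 122 to 708 CPM in WT and from 161 to 195 CPM in KO mice, with 5 of 10 called lower in each genotype comparison, of which Tcf7l2, Shox2, Rora and Gbx2 were called in both. GABAergic interneuron markers summed to 657 to 1042 CPM in WT and 701 to 756 CPM in KO mice, with 4 of 8 called lower in KO-RA and 2 in KO-O2. Among 4 oligodendrocyte precursor markers, 2 were called lower in the room air comparison only, and 2 of 6 astrocyte markers were called higher in each comparison. Choroid plexus markers fell to 37.6 CPM in KO-RA mouse 1 and 109 CPM in KO-O2 mouse 2, against 931 to 3422 CPM in the other 12 libraries. In such bulk tissue, fewer cells of a type, less RNA per cell and a different share of neighboring tissue in the dissection cannot be told apart. The part of tissue makeup in the genotype results below was not tested.

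The 77 members covered 15 classes of subunit. The largest were the inward rectifiers (13 members), the two-pore-domain channels (9), the ether-a-go-go family (8) and the silent Kv subunits (8). Mean levels over all mice spanned 1.252 to 373 CPM with a median of 30.2 CPM, 21 members lay below 10 CPM and 14 reached 100 CPM. Divided by the length of the longest transcript, levels ran from 0.292 to 95.2 CPM per kb, with a median of 7.29. Kcnab2, a cytoplasmic beta subunit of Kv1 channels, stood highest at 95.2 CPM per kb. Kcnj10, the astrocytic inward rectifier that clears potassium, followed at 47.4 CPM per kb, with Kcnip2, a calcium-binding partner of Kv4 channels, at 47.3 CPM per kb. The highest members of other classes included the leak channel Kcnk1 at 37.9, the BK auxiliary subunit Kcnmb4 at 30.2, the A-type channel Kcnd2 at 27.2 and the ether-a-go-go family member Kcnh3 at 26.1 CPM per kb. Lower still came Kcng1 (18.1), Kcna2 (17.9), Kcnn2 (15.7), Kcne1l (10.1) and Kcnt1 (8.65 CPM per kb).

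**Figure D1:**
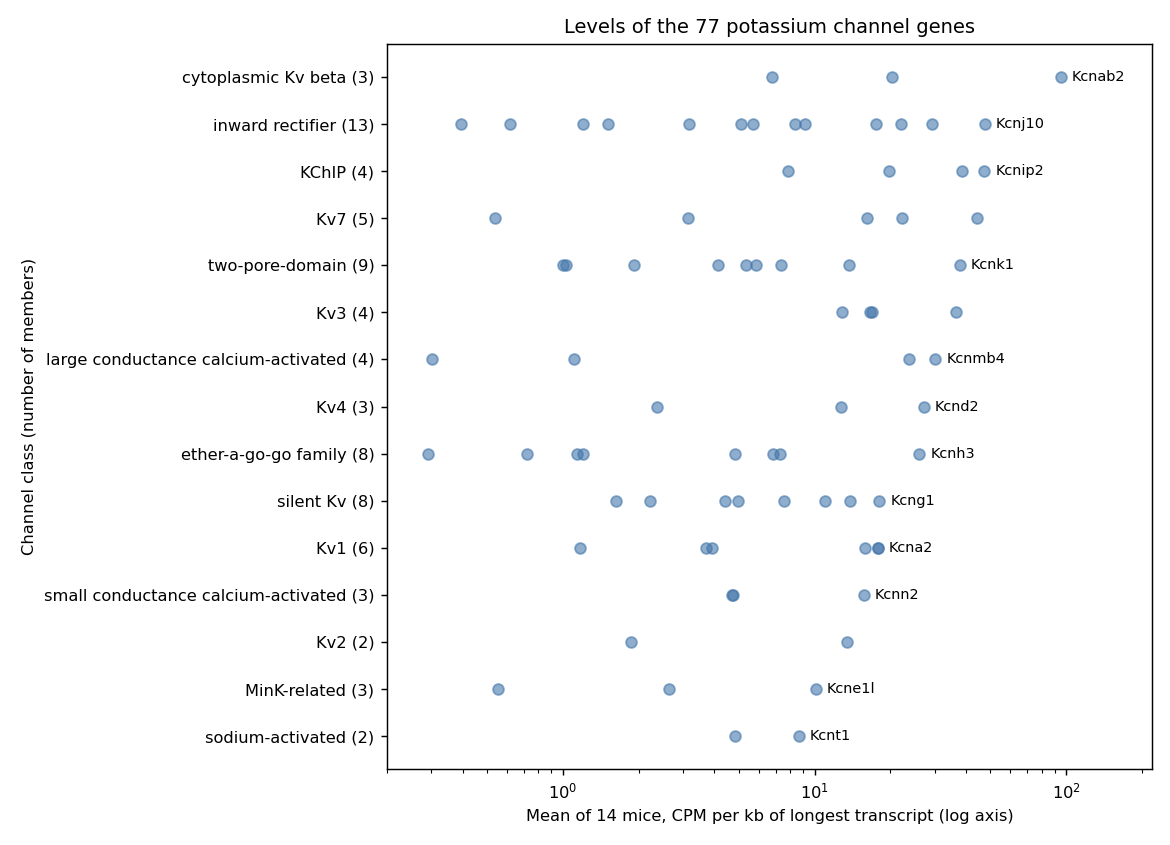
Mean level of each of the 77 members over the 14 mice in CPM per kb of the longest annotated transcript (log axis), 1 point per gene, by class; the highest gene is named for 12 of the 15 classes. Levels ran from 0.292 to 95.2 CPM per kb, with Kcnab2 highest.

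The first question was which potassium channel genes responded to neonatal hyperoxia in WT pups. One member, Kcnj2, was called (at least 25% higher in one group than in the other, with a p below 0.05 and an adjusted p below 0.1), and it was lower. Over all 16637 genes tested, 0.643% were called in this comparison (107 genes), so 1 of 77 members was close to the background. Kcnj2 encodes Kir2.1, a strong inward rectifier that stabilizes the resting potential. It measured 8.15, 9.65, 8.13 and 9.15 CPM in the WT-RA mice and 5.06, 5.09, 5.95 and 4.91 CPM in the WT-O2 mice, so the groups did not overlap. The means were 8.77 ± 0.757 and 5.25 ± 0.472 CPM (SD, n = 4 each), a log2 fold change of −0.74 ± 0.12 (SE), with an adjusted p of 0.0303 by edgeR's quasi-likelihood test. With WT-O2 mouse 4 read as room air, the log2 fold change was −0.57 and the adjusted p 0.318, and the call was lost. The call was also lost without WT-RA mouse 2 (log2 fold change −0.69, adjusted p = 0.111) or WT-O2 mouse 2 (−0.72, adjusted p = 0.126), with a fold close to that of all mice.

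In the KO pups, Kcnj2 measured 8.28, 6.30 and 7.33 CPM in room air and 4.30, 3.71 and 5.25 CPM in hyperoxia, again without overlap. The log2 fold change was −0.72 ± 0.15 (SE), with an adjusted p of 0.331, so it was not called by edgeR, while DESeq2 called it with an adjusted p of 0.0271. The WT and KO responses differed by 0.01 ± 0.19 (log2, SE), with an adjusted p of 0.9999 for the interaction. With the groups as titled, the 7 hyperoxic mice of both genotypes measured 3.71 to 5.95 CPM and the 7 room air mice 6.30 to 9.65 CPM. With WT-O2 mouse 4, at 4.91 CPM, read as room air, these ranges overlapped. Kcnj16, which lies beside Kcnj2 on chromosome 11, is expressed with Kcnj10 in glia and measured 18.2 to 23.6 CPM in WT-RA and 20.2 to 23.6 CPM in WT-O2 mice.

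The 250 bases upstream of the Kcnj2 start (RefSeq, GRCm38.p6, chr11:111065914-111066163, plus strand) are shown because this was the member that differed with hyperoxia. Each upstream window of this kind was searched on both strands for a cAMP response element (TGACGTCA), an AP-1 site (TGANTCA), an E-box (CACGTG), a GC box (GGGCGG) and a TATA box (TATAAA), and matches are in capitals. Of the 25 members called in any comparison, Kcnn2 and Kcng2 were left out beforehand by their chromosome. Members without exactly 1 listed start were also left out. Among the rest, 7 had a listed start that was also the outermost RefSeq start, and the windows shown are from these.
Kcnj2: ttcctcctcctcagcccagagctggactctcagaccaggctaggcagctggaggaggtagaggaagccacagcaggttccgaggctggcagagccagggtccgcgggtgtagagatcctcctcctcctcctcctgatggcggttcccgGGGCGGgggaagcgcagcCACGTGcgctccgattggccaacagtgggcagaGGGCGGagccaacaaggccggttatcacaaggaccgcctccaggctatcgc
The window held 1 E-box and 2 GC boxes. Of 32851 mouse promoter windows, 6.02% held at least 1 E-box and 32.7% at least 1 GC box. None of the other 3 motifs' letters was in this window.

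The other members with the smallest p in WT were not called. Kcnab3, a Kv beta subunit, had a log2 fold change of −0.27 ± 0.08 (SE; adjusted p = 0.191), Kcnj9, a G protein-gated inward rectifier subunit, −0.41 ± 0.14 (adjusted p = 0.232), Kcnh1, a pore subunit of the ether-a-go-go family, −0.37 ± 0.13 (adjusted p = 0.244) and the silent subunit Kcng1 0.37 ± 0.13 (adjusted p = 0.245). At an unadjusted p below 0.05 stood 15 members (19.5%), against 12.2% of all genes tested, and the median log2 fold change was −0.08 over the members and −0.01 over all genes. Without WT-RA mouse 1, which had the highest thalamic and oligodendrocyte markers, 6 members (7.79%) were called, among them Kcnd3, Kcnh1, Kcnj2, Kcnmb4 and Kcnv1, with 5 of the 6 lower, against 1.64% of all genes in the same fit. DESeq2 called Kcnj2 and Kcnj9 (2.6% of members), against 2.14% of all genes it tested.

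In KO pups, 0 of 77 members were called by edgeR, and 1 member, Kcnj2, had an unadjusted p below 0.05, against 4.86% of all genes. The background was 0.0120% (2 of 16637 genes called). DESeq2 called 1 member, Kcnj2, and 0.0494% of all genes it tested. After Kcnj2, the smallest p values belonged to Kcne4, a MinK-related subunit (log2 fold change 1.08 ± 0.53, SE), Kcns3 (−0.25 ± 0.13), Kcnq1 (0.57 ± 0.32) and Kcne1l (−0.22 ± 0.13), each with an adjusted p of 0.997. Kcne4 averaged 0.653 CPM in KO-RA and 1.39 CPM in KO-O2 mice and Kcnq1 1.22 and 1.81 CPM, so these differences rested on low counts.

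The difference between the WT and KO responses was tested as an interaction, in which 0 of 77 members and 0.00% of all genes were called by edgeR. DESeq2 also called 0 members, and 5 members (6.49%) had an unadjusted p below 0.05, against 4.05% of all genes. These were Kcnab3 (interaction 0.39 ± 0.13, log2, SE), Kcne1l (−0.54 ± 0.18), Kcnh6 (−0.73 ± 0.29), Kcnk2 (0.35 ± 0.16) and Kcnj14 (−0.62 ± 0.28). Kcne1l, an auxiliary subunit, measured 11.7 to 15.5 CPM in WT-RA, 15.3 to 18.5 in WT-O2, 15.2 to 19.3 in KO-RA and 12.5 to 17.4 CPM in KO-O2 mice. The ranges of Kcne1l overlapped between every pair of groups. The hyperoxia log2 fold changes had the same sign in WT and KO for 43 of 77 members (55.8%), against 59.4% of all genes tested.

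**Figure D2:**
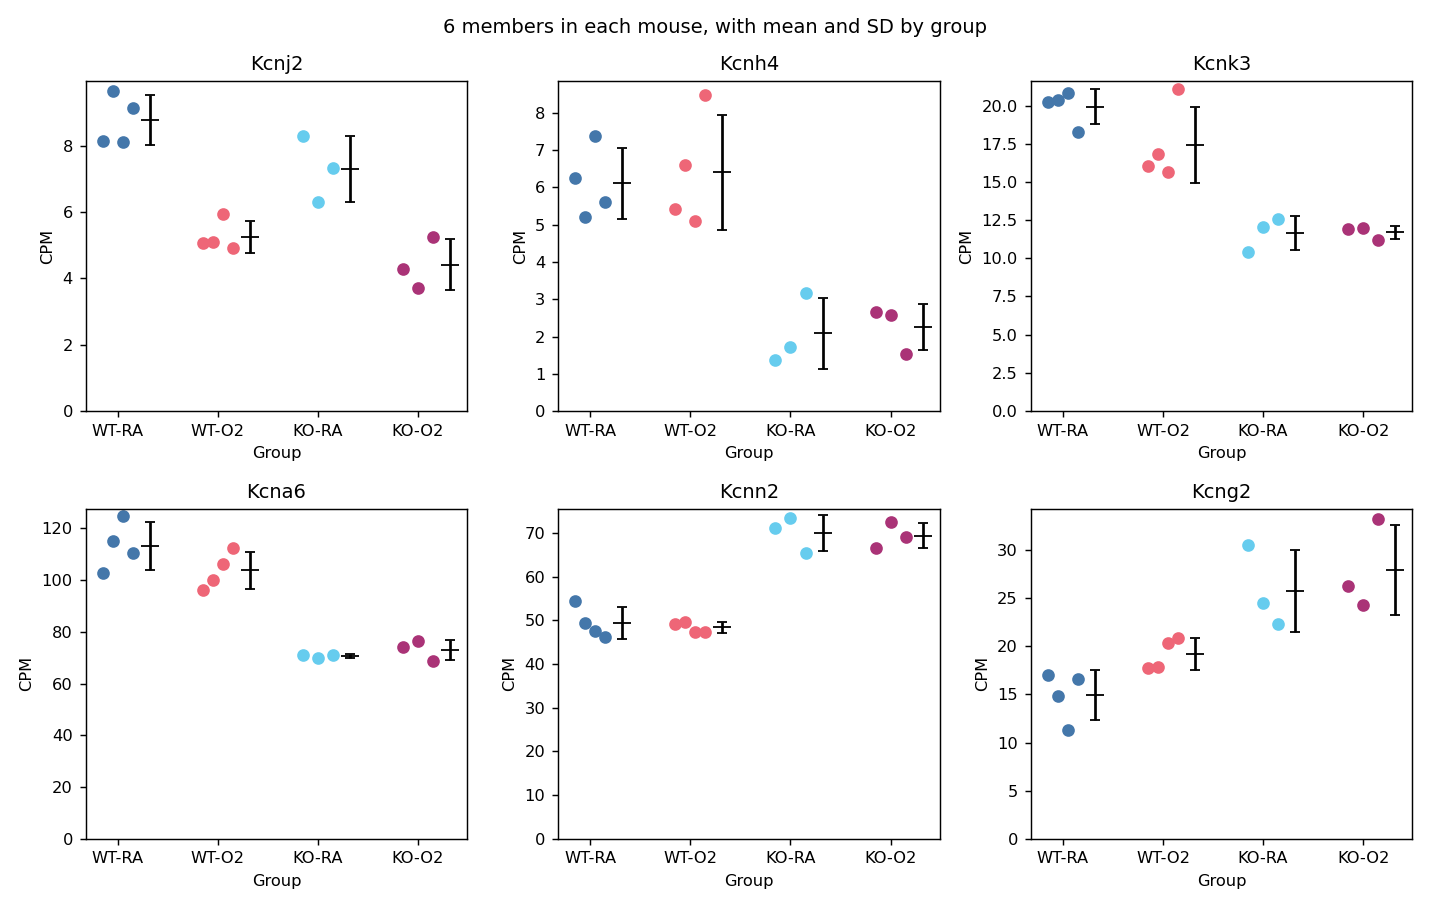
CPM of Kcnj2, Kcnh4, Kcnk3, Kcna6, Kcnn2 and Kcng2 in each mouse (colored points) by group, with the group mean (horizontal mark) and SD (bar); axes start at 0. Kcnj2 was lower in both hyperoxia groups (3.71 to 5.95 CPM) than in both room air groups, and the other 5 genes differed between WT and KO mice under either exposure.

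Genotype differences were more frequent. In room air, 21 of 77 members (27.3%) were called between KO-RA and WT-RA, 16 lower and 5 higher in KO. The background was 10.4% of all genes tested, or 11.2% of the 14469 genes that reached 1 CPM, with 6.70% called lower and 3.75% called higher. In hyperoxia, 16 members (20.8%) were called between KO-O2 and WT-O2, 13 lower and 3 higher, against a background of 6.86% of all genes, 7.37% of those of at least 1 CPM, 4.35% lower and 2.51% higher. These 2 comparisons share no library. Both took each gene's spread from the same fit of all libraries, so their calls are not independent. The comparisons called 13 members in common, which were 61.9% of the room air calls and 81.2% of the hyperoxia calls. Over all genes the shared calls were 43.4% and 66.1%. The log2 fold changes had the same sign for 65 of 77 members (84.4%), against 70.7% of all genes, with a Pearson r of 0.809 across the members and 0.659 across all genes, which are not independent replicates. The median log2 fold change of the members was −0.17 in room air and −0.08 in hyperoxia, and that of all genes −0.01 in both. Since no member passed the interaction test, a call in 1 of the comparisons only does not show that the genotype difference depended on exposure.

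**Figure D3:**
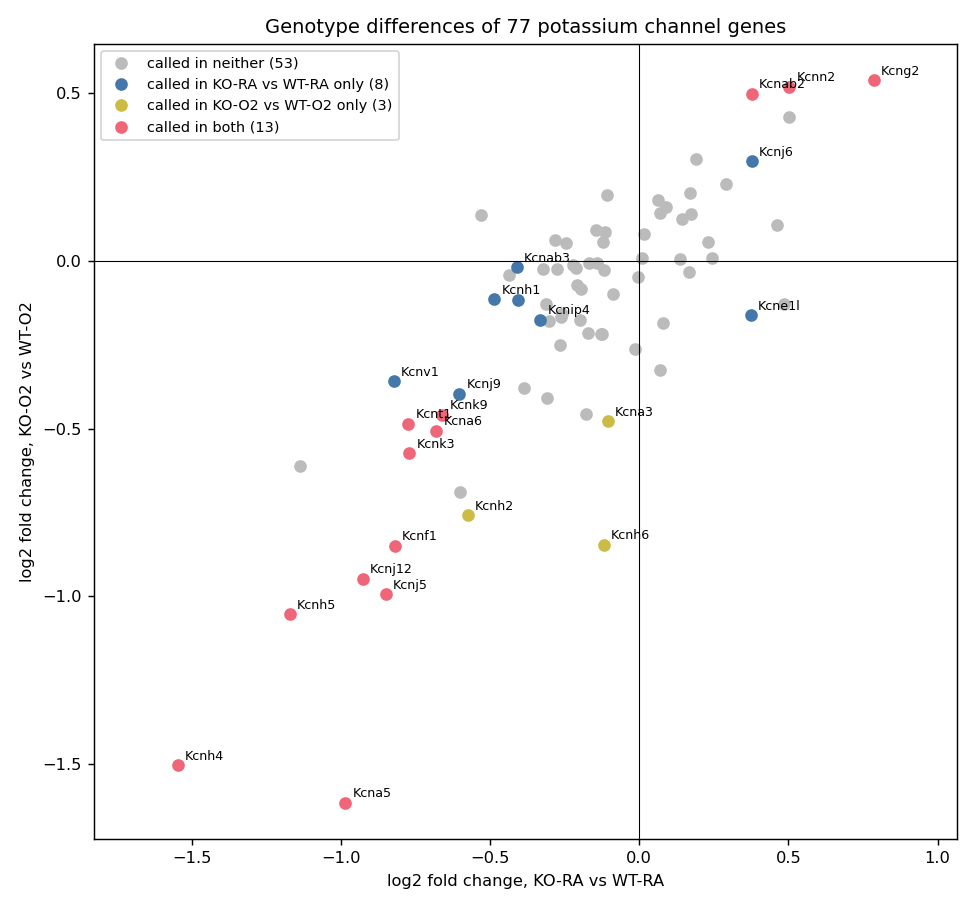
log2 fold change of each of the 77 members in KO-RA vs WT-RA (horizontal axis) and KO-O2 vs WT-O2 (vertical axis), 1 point per gene, colored by the comparison in which it was called. The 13 genes called in both lie in the lower left (10) and upper right (3), and Kcne1l is the called gene with opposite signs.

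The ether-a-go-go family held the member with the largest fall in room air, Kcnh4. Kcnh4 measured 6.26, 5.21, 7.39 and 5.60 CPM in WT-RA and 1.37, 1.71 and 3.17 CPM in KO-RA mice. In hyperoxia it measured 5.42, 6.60, 5.10 and 8.49 CPM in WT and 2.65, 2.57 and 1.54 CPM in KO mice. All KO values lay below all WT values, and the log2 fold changes were −1.55 ± 0.28 (SE, adjusted p = 0.00293) in room air and −1.50 ± 0.27 (adjusted p = 0.00480) in hyperoxia. Kcnh5, a member of the Eag branch, measured 4.22 to 12.9 CPM in WT-RA and 2.60 to 3.56 CPM in KO-RA mice (log2 fold change −1.17 ± 0.33, adjusted p = 0.0357), and 3.68 to 7.18 against 2.38 to 2.90 CPM in hyperoxia (−1.05 ± 0.34, adjusted p = 0.0861). The hyperoxia call of Kcnh5 was held in 13 of 25 alternative settings. The other calls of this family were made in 1 comparison each. Kcnh1 was lower in KO-RA (−0.49 ± 0.14). Kcnh2, which encodes the Erg channel known for cardiac repolarization, was lower in KO-O2 (−0.76 ± 0.22), as was its relative Kcnh6 (−0.85 ± 0.21). The log2 fold changes of all 8 members of the family were below 0 in both comparisons, with medians of −0.46 and −0.61. Kcnh3 was close to 0 in hyperoxia (−0.0063 ± 0.16). Over all 77 members, 53 were below 0 in room air and 51 in hyperoxia.

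The upstream window of Kcnh5 (RefSeq, GRCm38.p6, chr12:75177333-75177582, minus strand) is shown for the genes that were lower in KO under both exposures, with motif matches in capitals as above, and those of Kcna5 (chr6:126535556-126535805, minus strand) and Kcnf1 (chr12:17176889-17177138, minus strand) for comparison with it.
Kcnh5: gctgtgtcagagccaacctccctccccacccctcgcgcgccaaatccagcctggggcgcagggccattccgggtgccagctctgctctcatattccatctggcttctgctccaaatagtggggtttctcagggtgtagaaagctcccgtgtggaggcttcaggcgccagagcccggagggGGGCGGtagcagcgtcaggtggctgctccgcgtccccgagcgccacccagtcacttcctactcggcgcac
Kcna5: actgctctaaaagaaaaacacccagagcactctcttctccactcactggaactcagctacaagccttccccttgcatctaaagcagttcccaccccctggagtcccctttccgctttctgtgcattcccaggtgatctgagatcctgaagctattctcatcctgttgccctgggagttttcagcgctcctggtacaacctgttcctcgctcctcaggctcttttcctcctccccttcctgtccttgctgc
Kcnf1: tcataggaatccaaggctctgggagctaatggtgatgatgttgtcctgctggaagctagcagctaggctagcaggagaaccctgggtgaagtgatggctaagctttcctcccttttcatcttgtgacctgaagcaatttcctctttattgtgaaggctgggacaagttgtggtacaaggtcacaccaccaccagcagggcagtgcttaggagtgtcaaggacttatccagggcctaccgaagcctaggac
Kcnh5 held 1 GC box, and none of the letters of the 5 motifs was in the windows of Kcna5 and Kcnf1. Their GC contents were 65.6%, 53.2% and 51.2%, and no motif searched was found in all 3 windows.

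Among the Kv1 channels, which set the threshold and shape of action potentials along axons, Kcna6 and Kcna5 were lower in KO under both exposures. Kcna6 measured 103, 115, 125 and 110 CPM in WT-RA and 71.0, 69.8 and 71.1 CPM in KO-RA mice. In hyperoxia it measured 96.2, 100.1, 106 and 112 CPM in WT and 74.0, 76.3 and 68.9 CPM in KO mice. The KO values lay close together and below every WT value, with log2 fold changes of −0.68 ± 0.07 (SE, adjusted p = 9.6e-05) and −0.51 ± 0.07 (adjusted p = 0.00117). Kcna5 measured 3.46 to 4.62 CPM in WT-RA and 1.19 to 2.56 CPM in KO-RA mice (−0.99 ± 0.24, adjusted p = 0.0181), and 3.66 to 6.17 against 1.31 to 1.76 CPM in hyperoxia (−1.62 ± 0.25, adjusted p = 0.00193). Kcna1, which lies between these genes on chromosome 6, had log2 fold changes of −0.28 ± 0.11 and −0.02 ± 0.11 and was not called. Kcna3 was called lower in KO-O2 only (−0.48 ± 0.16, adjusted p = 0.0951), a call held in 8 of 25 alternative settings. All 6 Kv1 members had log2 fold changes below 0 in both comparisons, though that of Kcna1 in hyperoxia was smaller than its SE. Of all 77 members, 53 were below 0 in room air and 51 in hyperoxia.

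The two-pore-domain members that were called, Kcnk3 and Kcnk9, encode the acid-sensitive leak channels TASK-1 and TASK-3. Kcnk3 measured 20.2, 20.4, 20.9 and 18.3 CPM in WT-RA and 10.4, 12.03 and 12.6 CPM in KO-RA mice. In hyperoxia it measured 16.1, 16.8, 15.7 and 21.1 CPM in WT and 11.9, 11.96 and 11.2 CPM in KO mice. The groups did not overlap in either comparison, and the log2 fold changes were −0.77 ± 0.11 (SE, adjusted p = 5.3e-04) and −0.57 ± 0.11 (adjusted p = 0.00509). Kcnk9 measured 95.7 to 123 CPM in WT-RA and 67.0 to 71.4 CPM in KO-RA mice (−0.66 ± 0.12, adjusted p = 0.00323). In hyperoxia, KO-O2 mouse 2 stood at 92.7 CPM and the others at 62.6 and 64.1 CPM, against 96.2 to 107 CPM in WT-O2 mice (−0.46 ± 0.12, adjusted p = 0.0357). The other 7 two-pore-domain members, among them Kcnk1, Kcnk2 and Kcnk10, were not called in either comparison.

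Of the 13 inward rectifiers, Kcnj12 and Kcnj5 were lower in KO under both exposures. Kcnj12 encodes Kir2.2, a close relative of Kir2.1. It measured 12.8, 8.17, 8.13 and 9.36 CPM in WT-RA and 4.23, 5.60 and 5.30 CPM in KO-RA mice. In hyperoxia it measured 8.50, 7.60, 11.2 and 12.7 CPM in WT and 5.66, 5.25 and 4.65 CPM in KO mice. The groups did not overlap, with log2 fold changes of −0.93 ± 0.20 (SE, adjusted p = 0.00859) and −0.95 ± 0.20 (adjusted p = 0.0105). The G protein-gated members, which carry the inhibition that neurotransmitter receptors evoke, did not move one way. Kcnj5 was lower (−0.85 ± 0.24 and −0.99 ± 0.25) at 1.05 to 3.04 CPM, and Kcnj9 was called lower in room air only (−0.60 ± 0.15 and −0.40 ± 0.15). Kcnj6 was called higher in room air only (0.38 ± 0.13 and 0.30 ± 0.13), and Kcnj3 was called in neither (0.17 ± 0.09 and 0.20 ± 0.09). Kcnj2 was not called between genotypes (−0.26 ± 0.13 and −0.25 ± 0.14). Kcnj10, which astrocytes express, had log2 fold changes of −0.39 ± 0.15 and −0.38 ± 0.15 with adjusted p values of 0.127 and 0.177. Astrocyte markers summed to 3322 to 3960 CPM in WT and 3902 to 4666 CPM in KO mice. Oligodendrocyte markers summed to 4811 to 19190 CPM in WT and 3270 to 5758 CPM in KO mice. The part of either cell type in the Kcnj10 values was not tested.

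The silent Kv subunits differed in both directions. Kcnf1 measured 53.8, 93.2, 114 and 83.1 CPM in WT-RA and 44.4, 51.8 and 50.0 CPM in KO-RA mice. In hyperoxia it measured 80.3, 78.5, 72.4 and 76.4 CPM in WT and 52.0, 41.0 and 35.0 CPM in KO mice. Every KO value was below every WT value, with log2 fold changes of −0.82 ± 0.19 (SE, adjusted p = 0.0122) and −0.85 ± 0.19 (adjusted p = 0.0149). Kcnv1 was called lower in KO-RA only (−0.82 ± 0.22 and −0.36 ± 0.22), and its WT-RA values ran from 35.8 to 84.9 CPM. Kcng2 was higher in KO, at 17.0, 14.8, 11.3 and 16.6 CPM in WT-RA against 30.5, 24.5 and 22.3 CPM in KO-RA mice, and at 17.7, 17.9, 20.3 and 20.9 CPM in WT-O2 against 26.2, 24.3 and 33.2 CPM in KO-O2 mice. Its log2 fold changes were 0.79 ± 0.15 (adjusted p = 0.00362) and 0.54 ± 0.14 (adjusted p = 0.0411).

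Kcnn2 was the member with the smallest p among those higher in KO. It encodes SK2, a calcium-activated channel that limits firing and dendritic excitation in hippocampal neurons. It measured 54.4, 49.4, 47.6 and 46.1 CPM in WT-RA and 71.2, 73.4 and 65.4 CPM in KO-RA mice. In hyperoxia it measured 49.1, 49.7, 47.4 and 47.3 CPM in WT and 66.7, 72.5 and 69.1 CPM in KO mice. Every KO value lay above every WT value, and the log2 fold changes were 0.50 ± 0.06 (SE, adjusted p = 2.9e-04) and 0.52 ± 0.06 (adjusted p = 4.1e-04). Its relatives Kcnn1 and Kcnn3 were not called. The sodium-activated channel Kcnt1 (Slack) was lower, at 62.0 to 75.7 CPM in WT-RA and 34.9 to 44.8 CPM in KO-RA mice (−0.77 ± 0.14, adjusted p = 0.00298), and at 54.0 to 71.6 against 36.8 to 57.5 CPM in hyperoxia (−0.49 ± 0.14, adjusted p = 0.0538), where the groups overlapped.

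Auxiliary subunits showed small differences. Kcnab2 measured 299 to 400 CPM in WT-RA and 399 to 484 CPM in KO-RA mice (0.38 ± 0.11, SE, adjusted p = 0.0441), and 285 to 356 against 419 to 482 CPM in hyperoxia (0.50 ± 0.11, adjusted p = 0.0149). Kcnab3 was called lower in room air only (−0.41 ± 0.09 and −0.02 ± 0.09), as was Kcnip4, a KChIP that binds Kv4 channels (−0.33 ± 0.09 and −0.17 ± 0.09). Kcne1l was called higher in room air and had the opposite sign in hyperoxia (0.37 ± 0.12 and −0.16 ± 0.13). Kcnip2, named here after its values were seen, passed the adjusted p in both comparisons but its log2 fold changes of 0.29 ± 0.06 and 0.23 ± 0.06 were under the fold limit. No member of the Kv3, Kv4, Kv7 and BK classes was called in either genotype comparison. The Kv4 pore subunit Kcnd2, among the higher members per kb, had log2 fold changes of 0.14 ± 0.08 in room air and 0.13 ± 0.08 in hyperoxia.

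**Figure D4:**
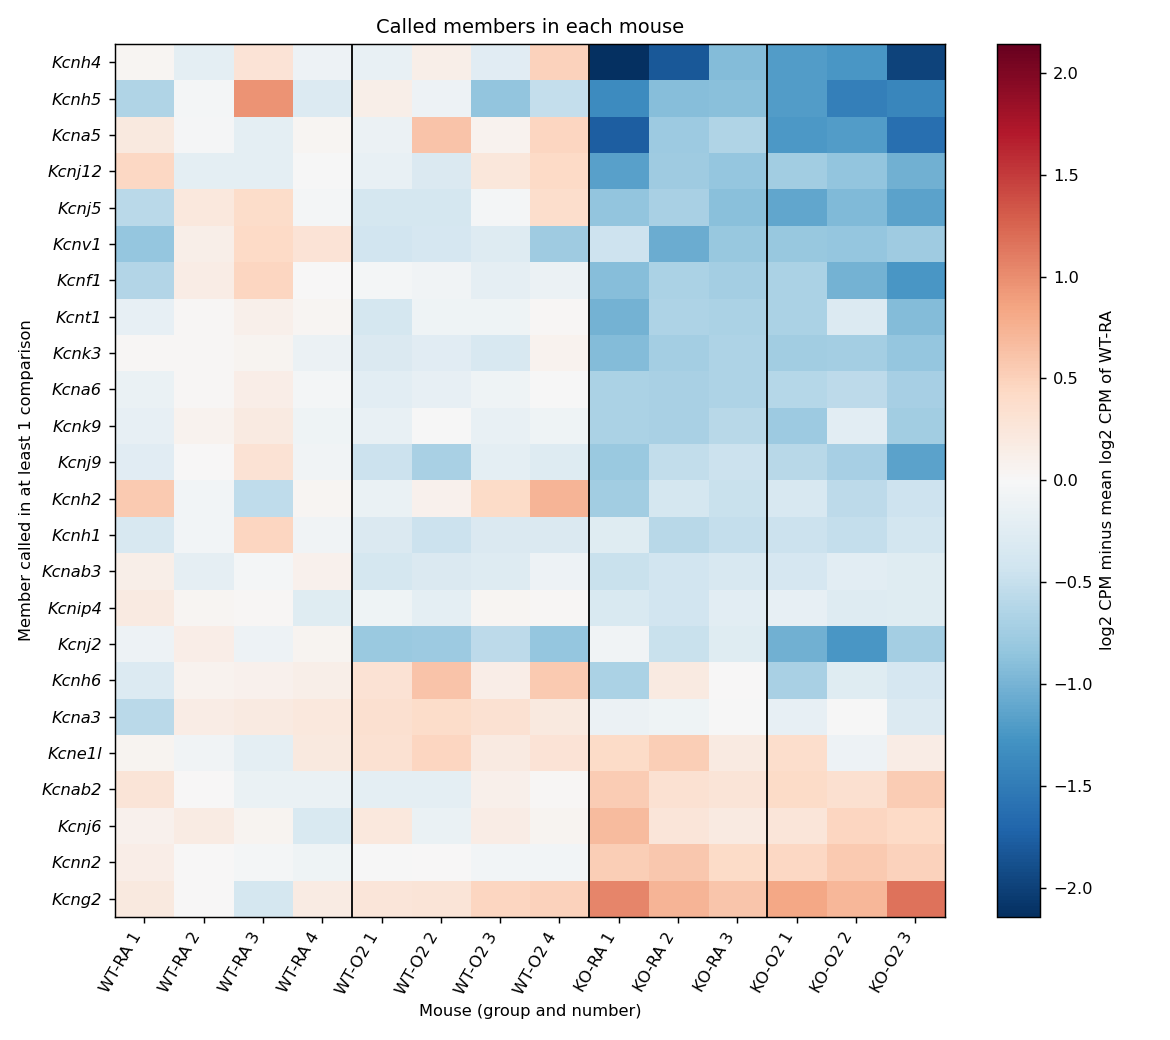
24 of the 25 members called in at least 1 comparison (rows, ordered by the KO-RA vs WT-RA log2 fold change) in each of the 14 mice (columns); color gives log2 CPM minus the mean log2 CPM of the 4 WT-RA mice. The 6 KO columns are on the low side for Kcnh4, Kcna5, Kcnj12, Kcnk3 and Kcna6 and on the high side for Kcng2 and Kcnn2, while Kcnj2 is low in the 7 hyperoxia columns.

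Partner proteins of potassium channels were read from a list of 27 genes, of which 26 were tested. They cover Kv4 and BK auxiliary subunits, ATP-sensitive channel regulators, scaffolds, the HCN channels that carry a depolarizing current at rest, and Kcnu1, a sperm channel gene outside the member rule. In hyperoxia comparisons 0 were called by edgeR in WT or KO. Between genotypes, 5 were lower and 0 higher in KO-RA, and 3 were lower and 0 higher in KO-O2. The lower shares were 19.2% and 11.5%, against 6.70% and 4.35% of all genes, with medians over the list of −0.11 and −0.08 (log2). Dpp10, an auxiliary subunit of Kv4 channels, averaged 100.1 ± 17.1 CPM in WT-RA and 48.2 ± 6.81 CPM in KO-RA mice (SD), a log2 fold change of −1.05 ± 0.13 (SE), and −1.12 ± 0.13 in hyperoxia. The pacemaker channel gene Hcn4 had log2 fold changes of −1.24 ± 0.25 and −1.30 ± 0.25, and the scaffold gene Dlg1, which clusters Kv1 channels, −0.59 ± 0.09 and −0.48 ± 0.09. Adam22 (−0.33 ± 0.06) and Hcn2 (−0.33 ± 0.11) were called in room air only.

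Members also varied with the mice that stood apart in tissue markers. In WT-RA, mice 1 and 3 were the highest and the lowest, in either order, for 43 of 77 members (55.8%), against 29.0% of all genes tested. Mouse 1 had the highest and mouse 3 the lowest sums of thalamic (708 and 122 CPM) and oligodendrocyte markers (19190 and 7683 CPM) in that group. Kcnf1 (53.8 and 114 CPM) and Kcnv1 (35.8 and 84.9 CPM) were low in mouse 1 and high in mouse 3, and Kcnh2 (47.1 and 22.1 CPM) the reverse. With both mice left out, 19 members were called in room air (9.93% of all genes), 18 of them among the 21. Kcnj13 and Kcne2, named after their values were seen, encode channel subunits of the choroid plexus and followed its markers. Kcnj13 measured 0.223 CPM in KO-RA mouse 1 and 0.624 CPM in KO-O2 mouse 2, against 3.43 to 12.5 CPM in the other libraries, and Kcne2 measured 0.297 and 0.404 CPM in those mice, against 2.51 to 10.1 CPM. With these 2 mice left out, 14 members were called in room air and 14 in hyperoxia (6.29% and 4.95% of all genes), of which 13 and 13 were among the calls with all mice, and Kcnh4, Kcna5, Kcna6, Kcnk3, Kcnk9, Kcnj12, Kcnf1, Kcnt1, Kcnn2 and Kcng2 stayed called in both.

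**Figure D5:**
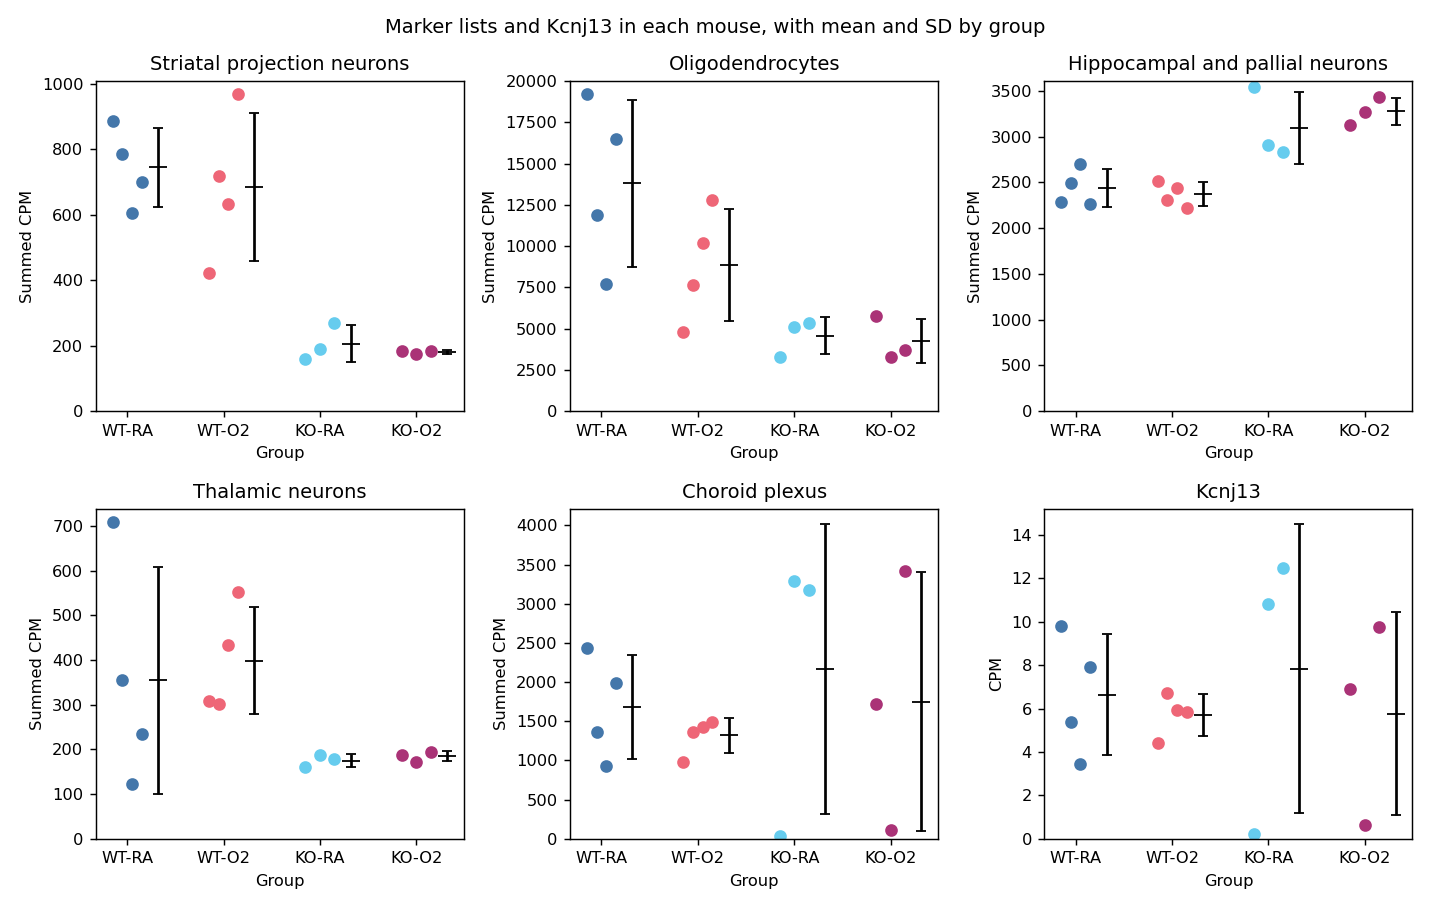
Summed CPM of 5 marker lists and CPM of Kcnj13 in each mouse (colored points) by group, with group mean (horizontal mark) and SD (bar); axes start at 0. Striatal projection neuron markers lay between 160 and 269 CPM in KO mice and between 421 and 968 CPM in WT mice, and choroid plexus markers and Kcnj13 were near 0 in 1 mouse of each KO group.

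The calls differed in how far they rested on single mice. Leaving out any 1 mouse kept 11 of the 21 room air calls and 8 of the 16 hyperoxia calls. The room air calls kept were Kcna5, Kcna6, Kcnab3, Kcnf1, Kcng2, Kcnh4, Kcnj12, Kcnk3, Kcnk9, Kcnn2 and Kcnt1, and the hyperoxia calls kept were Kcna5, Kcna6, Kcnab2, Kcnf1, Kcnh4, Kcnj12, Kcnk3 and Kcnn2. Room air counts fell to 13 without KO-RA mouse 1, where 6.37% of all genes were called. Hyperoxia counts fell to 9 without KO-O2 mouse 3, where 4.0% of all genes were called. With WT-O2 mouse 4 read as room air, 25 members were called in room air and 11 in hyperoxia (10.9% and 4.60% of all genes). The room air call of Kcne1l and the hyperoxia calls of Kcnt1, Kcnh2, Kcng2, Kcna3, Kcnh5 and Kcnh6 were lost. Kcnk9 and Kcnv1 lie on chromosome 15, as does Gsdmd, and 4 other members on that chromosome (Kcnq3, Kcnh3, Kcnj4 and Kcns2) were not called. How near these genes lie to Gsdmd was not measured, and the part of their position in the calls was not tested. Many channel genes overlap an antisense or neighboring gene in a GRCm38 annotation, among them the called genes Kcna6, Kcnab2, Kcnab3, Kcng2, Kcnip4, Kcnj6, Kcnj9, Kcnk3 and Kcnn2. Of these called genes, only Kcnip4 and Kcnn2 overlap a gene that is in the deposited counts. Since the use of strand in counting is not stated, reads of such pairs cannot be told apart.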

How the data were processed

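RNA-seq of 14 mouse hippocampi was read by the authors with Kallisto against GRCm39 and summed to genes with tximport, and the deposited table holds estimated counts per gene. Tool versions, count scaling and the use of strand are not given in the sources used here. Since 41.0% to 43.2% of a library's values were fractional, counts were rounded. Symbols for 35825 genes came from an annotation of another build (GRCm38), used only for names, transcript lengths, neighbors, exon overlaps and RefSeq promoter sequences.

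Groups followed the public titles. Low genes were removed with filterByExpr, which kept 16637 genes and all 77 members. Counts were scaled by TMM and fitted in edgeR 4.0.16 (R 4.3.3) as 4 groups without covariates. Comparisons used its quasi-likelihood test, and p values were adjusted over all genes by the Benjamini-Hochberg method. The limits for a call followed the study: a fold of 1.25 or more either way, p below 0.05 and adjusted p below 0.1. CPM values are TMM-scaled. SE is an approximate standard error, the size of the log2 fold change divided by the square root of the test's F statistic. The fit was tested on simulated data.

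The members and lists were chosen with earlier results of these data known. Named genes were the called members, the 5 members of smallest p in the hyperoxia and interaction tests, the top member of each class per kb, and those nearest the level limit. Some of these genes are counted but not reported here. Alternatives were DESeq2 1.42.0, other scalings, filters and limits, each comparison fitted on its own groups, the other reading of WT-O2 mouse 4, and each mouse left out. With 3 or 4 mice per group, the spread behind each p value was pooled over all 4 groups and moderated by that of other genes. It covers only variation between these mice.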

Additional observations from a re-analysis of the deposited data

Results flagged for a closer look

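In groups of 4 mice, 3 of 62 combinations of a named member and a WT group held 1 mouse far from the other 3, by Dixon's criterion, which chance meets in about 1 of 20 groups. Kcnh1 measured 43.7 CPM in WT-O2 mouse 2, against 48.2 to 48.4 CPM in the other WT-O2 mice. Kcna3 measured 4.51 CPM in WT-RA mouse 1, against 7.47 to 7.86 CPM, and Kcnh6 measured 1.93 CPM in the same mouse, against 2.50 to 2.58 CPM. WT-RA mouse 1 also had the highest thalamic and oligodendrocyte marker sums of its group, and the part of these in the 2 low values was not tested.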

How the results depend on the processing

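The log2 fold changes of 52 pairs of a named gene and a comparison kept their direction in all 1191 values from other fits. Of these values, 1094 kept their side of the threshold, 94 lost the call and 3 gained it. Leaving out a mouse of neither group compared could hardly move a fold change, and other scalings and filters used the same counts. For such fits the kept direction was largely fixed in advance. They are also among the alternative settings counted for single calls above. Stricter fold or adjusted p limits on the same fit lost further calls. Counts of called members mostly stayed within 1.5 times the reported count. In WT-O2 vs WT-RA (1 member), DESeq2 called 2 (2.14% of all genes) and the reading of WT-O2 mouse 4 as room air 0 (0.0361%). Leaving out WT-RA mice 1 and 3 together, an alternative chosen after seeing the data, called 2 (0.542% of all genes). In KO-O2 vs KO-RA (0 members), DESeq2 called 1 (0.0494% of all genes). At a fold limit of 1.5, KO-RA vs WT-RA called 13 (5.66% of all genes) and KO-O2 vs WT-O2 called 8 (3.65% of all genes). With 1 mouse left out at a time, the counts ranged from 0 to 6 in WT-O2 vs WT-RA, from 13 to 27 in KO-RA vs WT-RA and from 9 to 19 in KO-O2 vs WT-O2. Over all genes, the called shares ranged from 0.0783% to 1.64%, from 6.37% to 11.6% and from 4.0% to 8.05%, in the same order. The counts stayed at 0 in KO-O2 vs KO-RA and in the interaction. Leaving out the 2 KO mice low in choroid plexus markers was also chosen after seeing the data and gave 14 calls in each genotype comparison. Where a setting changed a call, the cause was not tested. No paired analysis was possible because the labels give no replicate numbers. Of 21 members below 10 CPM, 7 were called in a genotype comparison, against 24 of all 77 members. The share called among all genes below 10 CPM was not counted. How depth limited the calls was not tested.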
